A study of Saccharomyces cerevisiae with 26 samples.

Results

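The comparison described here is the step from day 0 to day 1 of culture in alginate beads, in 6 of the 26 expression arrays of a series on ageing budding yeast. All arrays titled as immobilized at day 1 (4 arrays) were set against all arrays titled as day 0 (2 arrays). The values are those of 5445 genes of Saccharomyces cerevisiae, out of 5449 that the array represents by a probe set with a single gene. The other 4 genes had missing values, among them DAN1, an anaerobically induced cell wall gene with no value on either day 0 array.

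The cells were haploid S288C, the standard laboratory yeast, labelled Mat-alpha, with no introduced allele or transgene in the labels. They were enclosed in calcium alginate, a gel that holds cells in place while the medium flows past, as beads of 3 mm packed into a reactor. The medium was synthetic and defined, with 100 g/L glucose, held at pH 5.5 and 32.5 °C. Of day 0 the labels say different things: the sample titles call it preimmobilized, whereas the source names place the harvest just after immobilization. The growth condition of both day 0 arrays is given as immobilized and their RNA extraction as the one used for beads, so by the labels extraction did not differ between the groups compared. How the cells were grown before they were enclosed, and the gas phase of the reactor, are not given in the sources used here. For orientation, 6 further arrays in the series came from free cells in anaerobic culture (log phase, stationary phase and a chemostat, 2 each) and 14 from later days in beads. Whether replicate arrays stem from different cultures is not stated, so the p-values reflect the spread among the arrays of this series alone, and that spread may be technical.

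Yeast cells that run out of glucose switch on genes for respiration, for the use of ethanol, acetate and fatty acids, and for gluconeogenesis, the synthesis of sugar from smaller carbon compounds. Glucose represses these genes, and rapid growth on glucose goes with high transcription of ribosomal protein genes. Oxygen is read through heme and sterols, both of which need it for their synthesis. When it is short, yeast exchanges several respiratory proteins for hypoxic isoforms, takes up sterol from outside and changes the mannoproteins of its cell wall.

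The measurement is a ratio: each probe set's signal was divided by its own median over the 26 arrays, so a log2 ratio of 0 is the middle of the series for that gene and the absolute signal is lost. Levels of different genes cannot be compared. Since 18 of the 26 arrays are of beads at days 1 to 17, a gene that stood apart at day 0 shows day 0 values far from 0 and day 1 values near it. Genes count as called where limma gave an adjusted p (Benjamini-Hochberg, over all tested genes) under 0.05 and the difference was at least 2-fold. All 9 groups of the series were fitted together, so that the spread of a gene was estimated from all of them. The p-values and SE therefore rest on this pooled spread and not on that of day 0 and day 1 alone.

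The 2 day 0 arrays were alike across genes (Pearson's r = 0.908), whereas the 4 day 1 arrays were not. Replicates 1, 2 and 3 correlated with each other at 0.198 to 0.651, and replicate 4 correlated with them at -0.321 to -0.491, although all carry the same label. The median standard deviation of a gene was 0.482 at day 1 against 0.169 at day 0. The other groups had 0.093 to 0.39, and a spread pooled over groups does not show this difference between day 0 and day 1. Replicate 3 had the highest 3' over 5' signal of 8 control genes, a sign of shorter labelled RNA, at 0.487 on the log2 scale. The other day 1 arrays had -0.257 to 0.037 and the day 0 arrays -0.201 and -0.125. Results without single arrays are therefore given beside those reported. Among 1746 probe sets that belong to another organism and share the array, 0 were called with the same limma model and 0 differed by 2-fold. Since a call needs a 2-fold difference, the absence of calls followed from that minimum. At an unadjusted p under 0.05 in limma, 94 were higher and 99 lower, together a larger share than the 0.05 expected without any difference.

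Between day 0 and day 1, 1106 of the 5445 genes were called (20.3%), 543 higher at day 1 (9.97%) and 563 lower (10.3%). The median change over all genes was -0.026 on the log2 scale. In 2215 genes (40.7%) the 4 day 1 arrays all lay on the same side of both day 0 arrays, 1133 of them with day 1 higher (20.8%) and 1082 with day 1 lower (19.9%). Without replicate 4, 1333 genes were called, and without replicate 3, 1014. Repeating quantile normalization over the tested genes left 429 calls, a fit of the 6 arrays alone left 454, and the fit without day 0 replicate 2 left 667 (376 higher and 291 lower), so that counts of list members in that fit are read against a smaller background. Of 159 called genes named below, 118 kept their call when each of the 6 arrays was left out in turn, and 54 lost it after repeated quantile normalization. In bulk RNA of this kind, fewer cells of a type and less RNA per cell cannot be told apart.

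The genes furthest higher at day 1 included 3 cell wall mannoproteins of the TIR family, a flocculin and an oxysterol-binding protein. HES1 (YOR237W), which encodes an oxysterol-binding protein, had log2 ratios of -5.58 and -5.69 at day 0 and of 0.23, 0.64, -0.05 and 0.88 at day 1. All 4 day 1 arrays lay far above both day 0 arrays, and the difference was 6.06 ± 0.36 (log2 fold change ± SE, limma adjusted p = 1.07e-10), or 66.6-fold. INA1 (YLR413W) stood at -5.53 and -5.86 at day 0 and between -1.14 and 0.23 at day 1, a rise of 5.30 ± 0.29. TIR1 (YER011W), a serine-rich mannoprotein induced by cold and anaerobiosis, was at -4.87 and -5.13 at day 0 and at 0.33, -0.14, 0.40 and 0.17 at day 1. Its day 1 arrays lay close together, and the rise was 5.19 ± 0.21 (adjusted p = 3.07e-13). FLO1 (YAR050W), the lectin-like flocculin that makes cells stick together, had -4.76 and -4.30 at day 0 and 1.25, 0.77, -1.26 and 0.05 at day 1. Replicate 3 was the lowest of the day 1 arrays and still lay above both day 0 arrays, with a rise of 4.73 ± 0.53. SRD1, IZH4, SET4, TIR3, PAU2, TIR4, IZH2 and ANB1 completed the 12 highest, with rises from 5.18 (SRD1) to 4.05 (ANB1). IZH2 and IZH4 encode membrane proteins of the progestin and adipoQ receptor family that respond to zinc and lipids, and SET4 a SET-domain protein. The PAU2 probe set can also bind near-identical family members.

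**Figure D1:**
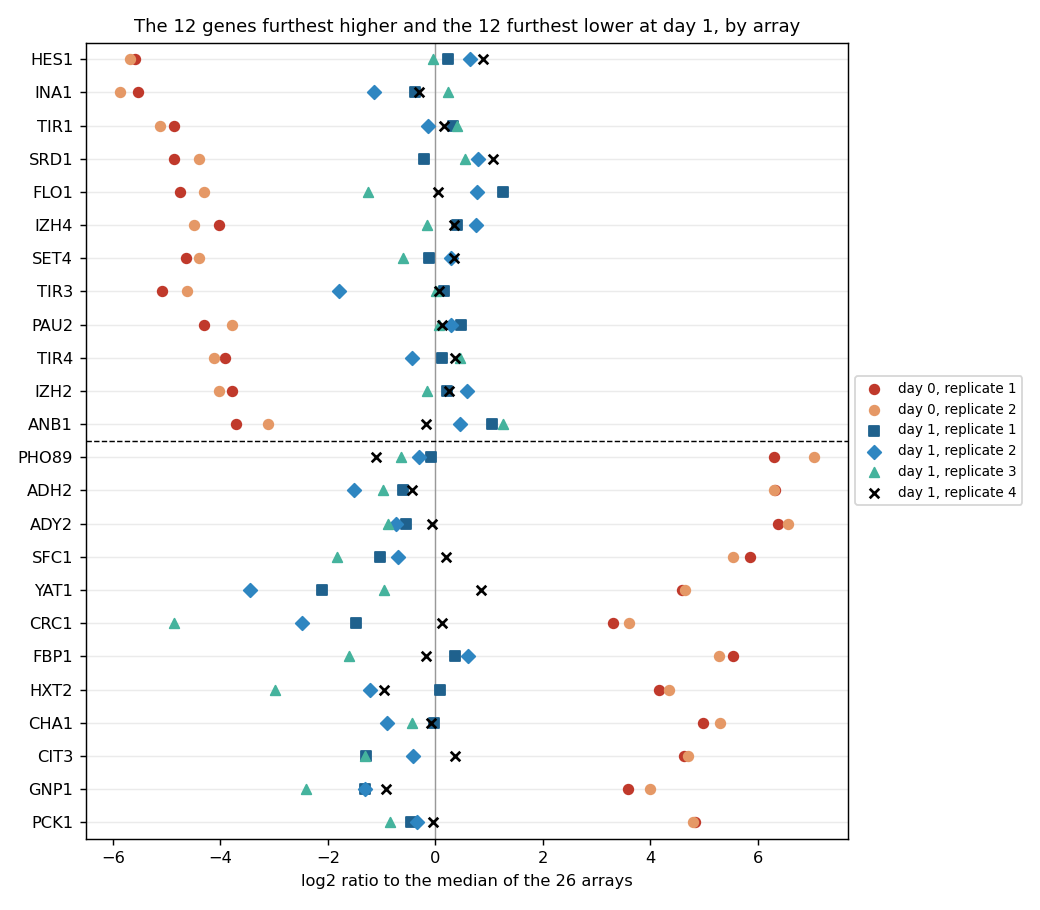
Log2 ratio (x axis, to the median of the 26 arrays) of the 12 genes furthest higher (upper block) and the 12 furthest lower (lower block) at day 1, with 1 symbol for each of the 2 day 0 and 4 day 1 arrays. In every row both day 0 arrays lie apart from all 4 day 1 arrays, and the day 1 arrays spread most in CRC1 and YAT1.

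Among the 12 genes furthest lower at day 1 were genes of ethanol, acetate and carnitine use, gluconeogenesis and transport. ADH2 (YMR303C), the alcohol dehydrogenase that oxidises ethanol, stood at 6.32 and 6.30 at day 0 and at -0.61, -1.52, -0.97 and -0.44 at day 1. Both day 0 arrays lay far above all day 1 arrays, and the fall was -7.19 ± 0.32 (adjusted p = 7.82e-13), or 146-fold. ADY2 (YCR010C), an acetate transporter, was at 6.38 and 6.56 at day 0 and between -0.88 and -0.06 at day 1, a change of -7.03 ± 0.97. PHO89 (YBR296C), a sodium-phosphate cotransporter, had 6.30 and 7.04 at day 0 and -0.08, -0.31, -0.64 and -1.11 at day 1, a change of -7.21 ± 0.93 (adjusted p = 8.4e-06). It was the lowest of all called genes whose arrays did not overlap. SFC1 (-6.53), the mitochondrial succinate-fumarate carrier, YAT1 (-6.03) and CRC1 (-5.63), which handle carnitine esters, FBP1 (-5.61) and PCK1 (-5.23), both of gluconeogenesis, followed together with HXT2 (-5.52), CHA1 (-5.50), CIT3 (-5.33) and GNP1 (-5.27). CHA1 degrades serine and threonine, CIT3 is a mitochondrial citrate and methylcitrate synthase, and GNP1 is a glutamine permease. All 24 genes kept their call without replicate 4, with log2 changes of at least 4.06 in size and an adjusted p of at most 0.000789. The call of YAT1 ended after repeated quantile normalization (-3.67, adjusted p = 0.0532).

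The 45 gene lists, drawn up from textbook pathways, differed widely in how many members were called. They were chosen with earlier results of these data known, so their counts are a description and not an independent test. The background for each count in the fit as reported is 9.97% higher and 10.3% lower over all genes, and a gene can stand in more than 1 list. Counts from other fits have their own background. Of the 5445 genes, 242 were higher and 187 lower after repeated quantile normalization. Without replicate 4 these numbers were 640 and 693, and without replicate 3 they were 544 and 470. Fits without 1 of the day 0 arrays also called fewer genes. Where a list had called members in 1 direction and 0 in the other, limma at an unadjusted p under 0.05 and any size of change also found 0 in that other direction, except in 4 lists. These were the mitochondrial ribosomal proteins, with 4 lower, purine and one-carbon metabolism, with 3 lower, translation factors and aminoacyl-tRNA synthetases, with 1 lower, and trehalose and glycogen, with 1 higher.

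**Figure D2:**
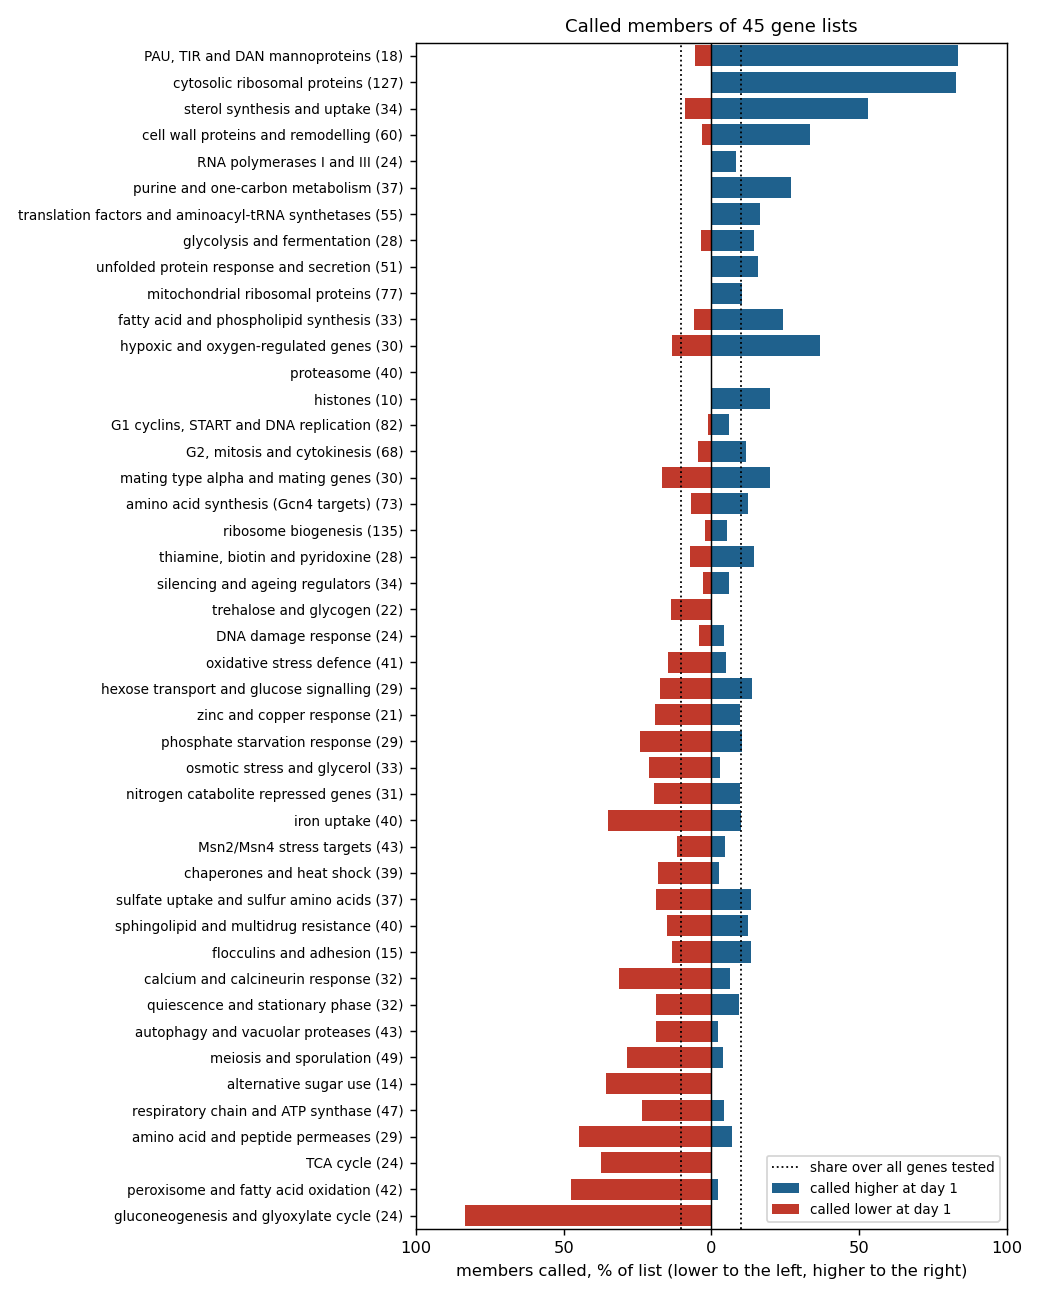
Share of the members of each of 45 gene lists that were called higher (bars to the right) or lower (bars to the left) at day 1, in percent of the members tested, whose number is in brackets. Dotted lines mark the shares over all genes, 9.97% and 10.3%; the lists are ordered by median change, from the PAU, TIR and DAN mannoproteins to gluconeogenesis and the glyoxylate cycle.

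Mannoproteins of the PAU, TIR and DAN families, small cell wall or secreted proteins most of which are known as anaerobic genes, were higher at day 1. Of 18 measured members, 15 rose and 1 fell, with a median log2 change of 2.24 against -0.03 over all genes. In 17 of the 18 the day 1 arrays all lay above both day 0 arrays, beside 20.8% over all genes. Median log2 ratios of the list were -1.97 and -1.56 at day 0 and 0.63, -0.07, 0.37 and 0.07 at day 1. TIR3 had -5.09 and -4.63 at day 0 and 0.17, -1.80, 0.01 and 0.07 at day 1, so replicate 2 was lower than the rest, with a rise of 4.47 ± 0.41. TIR4 rose by 4.14 ± 0.26 and PAU5, whose probe set can bind related genes, by 3.83 ± 0.26. PAU21, likewise not specific to 1 gene, was the member that fell, at -2.24 ± 0.50, and its call ended without day 0 replicate 2 (-1.76, adjusted p = 0.0741). DAN4 and PAU4, at 0.81 and 0.83, did not reach a 2-fold change, though PAU4 was called without day 0 replicate 2 (1.23, adjusted p = 0.0296). DAN1 had log2 ratios of 0.35, -0.43, 0.62 and -0.18 at day 1, with nothing to set them against.

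Genes that answer to oxygen and heme moved in both directions. Of 30 members of the list, 11 rose and 4 fell. ANB1, the hypoxic form of the translation factor eIF5A, stood at -3.70 and -3.11 at day 0 and at 1.05, 0.46, 1.26 and -0.17 at day 1, a rise of 4.05 ± 0.46. Its aerobic counterpart HYP2 had 0.21 and 0.13 at day 0 and -0.03, -0.03, -0.70 and -0.11 at day 1, and its change of -0.38 ± 0.19 was not called (adjusted p = 0.134). COX5A and COX5B encode the aerobic and the hypoxic form of a cytochrome oxidase subunit. COX5A was at 1.70 and 1.64 at day 0 and between -1.42 and 0.66 at day 1 (-1.93 ± 0.57), and COX5B at -0.54 and -0.62 at day 0 and between 0.00 and 0.89 at day 1 (1.06 ± 0.30). CYC1, the main cytochrome c, had 3.54 and 2.85 at day 0 and 0.14, -0.83, -3.85 and -0.84 at day 1. Replicate 3 was the lowest by far, and the fall was -4.54 ± 1.26 (adjusted p = 0.00951). CYC7, the minor cytochrome c, was not called at -0.64 ± 0.71, with replicate 3 at -2.88 and the other day 1 arrays between -0.37 and 0.77. Among the ADP/ATP carriers of mitochondria, the hypoxic AAC3 rose by 1.93 ± 0.49, whereas PET9 (-1.37 ± 0.39) and AAC1 (-1.55 ± 0.34) fell.

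HEM13, a heme synthesis gene induced when oxygen is low, was at -2.10 and -1.91 at day 0 and at 0.78, -0.38, 1.35 and -0.30 at day 1, a rise of 2.37 ± 0.35. FET4, a low-affinity iron transporter, rose by 3.16 ± 0.36. MGA2, which activates the fatty acid desaturase gene OLE1, rose by 2.04 ± 0.21, while OLE1 itself changed by 0.56 ± 0.20, short of 2-fold. ROX1, the repressor of hypoxic genes, was lower on all day 1 arrays than at day 0, but its change of -1.38 ± 0.70 was not called (adjusted p = 0.142). The calls of COX5A, COX5B, CYC1, AAC3 and PET9 ended after repeated quantile normalization (adjusted p from 0.0902 for AAC3 to 0.156 for COX5A) and without day 0 replicate 2 (0.0564 for CYC1 to 0.0943 for COX5A), and that of AAC1 after the former (0.0705). Without day 0 replicate 1, COX5A, COX5B, CYC1 and PET9 lost theirs as well (0.088, 0.0597, 0.0868 and 0.0765), and COX5B fell short of 2-fold without day 1 replicate 2 (0.93). The 4 falling members of the list were 2 without either day 0 array.

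**Figure D3:**
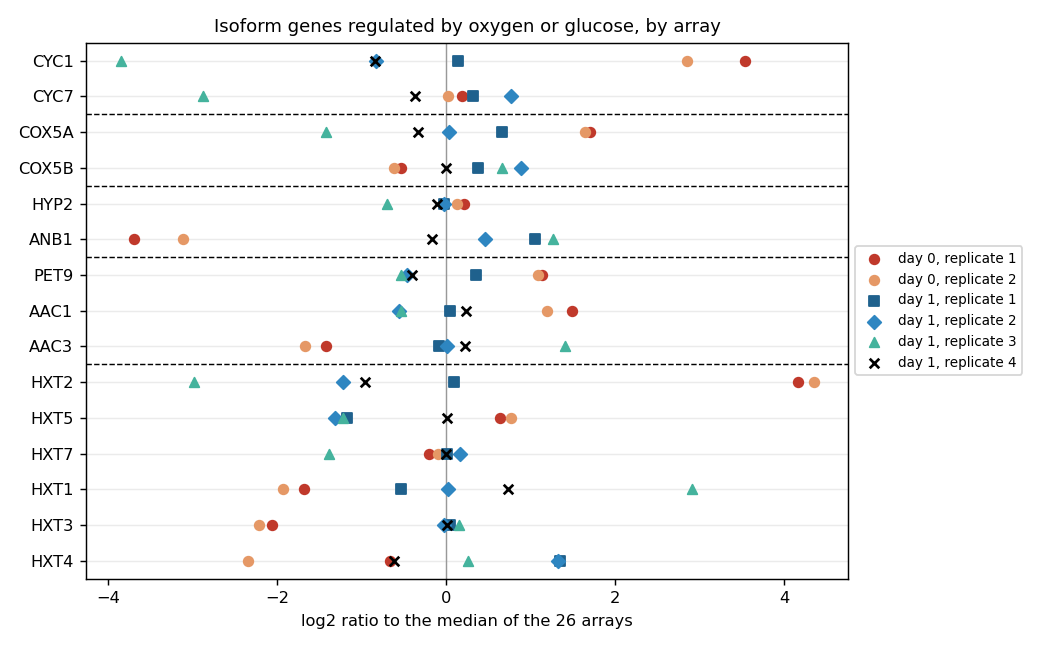
Log2 ratio by array of isoform genes known to be regulated by oxygen (CYC1 to AAC3) or by glucose (HXT2 to HXT4), with dashed lines between families. ANB1, COX5B and AAC3 lie higher on all 4 day 1 arrays than on both day 0 arrays and CYC1, COX5A, PET9 and AAC1 lower; CYC7 and HXT7 overlap.

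Among sterol genes more members rose than fell. Of 34 genes for ergosterol synthesis, sterol uptake and storage, 18 rose and 3 fell, with a median log2 change of 1.07. Array medians were -0.84 and -0.85 at day 0 and 0.37, -0.04, 0.22 and 0.00 at day 1. The late enzymes ERG5, ERG4 and ERG3 rose by 3.01 ± 0.30, 2.94 ± 0.28 and 2.46 ± 0.25. ERG3 had -2.55 and -2.51 at day 0 and 0.06, -0.50, 0.09 and 0.08 at day 1. CYB5, the cytochrome b5 that passes electrons to sterol and lipid oxidation, rose by 3.11 ± 0.54. The oxygen-dependent steps ERG1 (squalene epoxidase) and ERG11 (lanosterol demethylase) rose by 1.72 ± 0.29 and 1.63 ± 0.18. AUS1 and PDR11, transporters that bring sterol in from outside, rose by 2.34 ± 0.21 and 2.43 ± 0.43. The members that fell were SUT1 (-2.45 ± 0.43), a regulator of sterol uptake, ARE2 (-1.85 ± 0.47), which esterifies sterols for storage, and ERG29 (-1.07 ± 0.30). Neither the transcription factor genes UPC2 and ECM22 (-0.09 and -0.03) nor the HMG-CoA reductase genes HMG1 and HMG2 (-0.34 and 0.93) were called, though HMG2 was without day 1 replicate 2 (1.09, adjusted p = 0.0242). The number of members that rose was 16 after repeated quantile normalization and 20 without replicate 4. The calls of ARE2 and ERG29 ended without day 0 replicate 2 (adjusted p = 0.0544 and 0.247) and after repeated quantile normalization (0.0804 and 0.145).

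Gluconeogenesis and the glyoxylate cycle had the lowest median of the 45 lists. Of 24 genes, 20 fell and 0 rose, with a median log2 change of -3.74. Array medians were 2.92 and 3.01 at day 0 against -0.43, -0.57, -1.20 and 0.08 at day 1. PCK1, which makes phosphoenolpyruvate from oxaloacetate, had 4.83 and 4.79 at day 0 and -0.46, -0.35, -0.85 and -0.05 at day 1. FBP1, fructose-1,6-bisphosphatase, had 5.54 and 5.27 at day 0 and 0.37, 0.60, -1.61 and -0.17 at day 1. The glyoxylate enzymes ICL1 and MLS1 fell by 4.29 each on the log2 scale (SE 0.64 and 0.81), and IDP2, the cytosolic isocitrate dehydrogenase, by 3.57. Their activators fell too, SIP4 at -4.57 ± 0.49, CAT8 at -2.43 ± 0.73 and ADR1 at -1.96 ± 0.59, as did JEN1, the lactate permease (-3.90 ± 0.84), and the acetyl-CoA synthetase ACS1 (-1.67 ± 0.43). The calls of CAT8, ADR1 and ACS1 ended without day 0 replicate 2 (adjusted p = 0.118, 0.12 and 0.0574), without day 0 replicate 1 (0.0768, 0.079 and 0.0516) and after repeated quantile normalization (0.122, 0.13 and 0.174). RGI2, a gene of respiratory energy metabolism, stood at 6.81 and 6.86 at day 0 and at 3.53, 5.60, -1.44 and -0.83 at day 1. Its day 1 arrays thus fell into an upper and a lower pair, and its call (-5.12 ± 1.85, adjusted p = 0.0416) ended without replicate 3 (adjusted p = 0.11) or without replicate 4 (0.0854), without either day 0 array (0.155 and 0.184) and after repeated quantile normalization (0.42). The list held 20 falling members without replicate 4, 19 without replicate 3 and 13 after repeated quantile normalization.

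Peroxisomal and fatty acid oxidation genes fell in 20 of 42 cases and rose in 1, with a median of -1.0. The carnitine genes YAT1, CRC1 and YAT2 led, and YAT2 had 4.80 and 4.83 at day 0 and -0.36, 0.29, -0.43 and -0.03 at day 1 (-4.95 ± 0.58). CRC1, the carnitine carrier of mitochondria, stood at 3.31 and 3.60 at day 0 and at -1.48, -2.49, -4.86 and 0.13 at day 1, with replicate 4 nearest to day 0. CTA1, the peroxisomal catalase, fell by 4.37 ± 0.74. POT1, the last enzyme of beta-oxidation, fell by 3.01 ± 0.74, with replicate 3 at -3.07 and the other day 1 arrays between 0.19 and 0.57. Its call ended after repeated quantile normalization (adjusted p = 0.097) and without day 0 replicate 2 (0.0565). FAA4, an acyl-CoA synthetase that activates fatty acids taken up from outside, was the member that rose (1.57 ± 0.22). After repeated quantile normalization 5 members fell, and without day 0 replicates 1 and 2 in turn, 13 and 9 did.

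In the tricarboxylic acid cycle 9 of 24 genes fell and 0 rose (median -0.99). In 18 all day 1 arrays lay below both day 0 arrays, beside 19.9% over all genes. CIT3 and IDP2 had the largest changes. Changes were smaller in FUM1 (fumarase, -1.68 ± 0.42), IDH1 (the mitochondrial isocitrate dehydrogenase, -1.64 ± 0.47) and MDH2, the cytosolic malate dehydrogenase, which serves gluconeogenesis and the glyoxylate cycle (-1.67 ± 0.35). CIT1, the main citrate synthase, was not called at -0.91 ± 0.28 (adjusted p = 0.0201), but passed both thresholds without day 1 replicate 1 (-1.0, adjusted p = 0.0171). Respiratory chain and ATP synthase genes fell in 11 of 47 cases and rose in 2, the hypoxic COX5B and AAC3, with a median of -0.82. CYB2, the lactate dehydrogenase that feeds cytochrome c, had 2.63 and 2.76 at day 0 and 0.01, 0.43, -2.87 and -0.84 at day 1. The external NADH dehydrogenases NDE2 and NDE1 fell by 2.66 ± 0.40 and 2.48 ± 0.88, and NDE1 lost its call without replicate 3 (-1.74, adjusted p = 0.108), whose value was -2.98, without either day 0 array (0.158 and 0.161) and after repeated quantile normalization (0.209). Respiratory medians on the day 1 arrays were 0.13, 0.35, -0.71 and -0.25, with the lowest on replicate 3, and 9 members fell without it. After repeated quantile normalization 2 respiratory and 3 tricarboxylic acid cycle genes fell, and CYB2, FUM1 and IDH1 lost their calls (adjusted p = 0.0623, 0.123 and 0.175). FUM1 and IDH1 also lost them without day 0 replicate 2 (0.0582 and 0.143), when 5 respiratory and 4 tricarboxylic acid cycle genes fell. In the fit without day 0 replicate 1, 6 genes of each list fell.

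Hexose transporters moved in both directions. HXT1 and HXT3, which serve at high to intermediate glucose, and HXT4 rose by 2.59 ± 0.74, 2.18 ± 0.46 and 2.08 ± 0.58. HXT3 was at -2.06 and -2.21 at day 0 and at 0.05, -0.02, 0.15 and 0.01 at day 1. HXT1 was at -1.68 and -1.93 at day 0 and at -0.53, 0.02, 2.91 and 0.73 at day 1, with replicate 3 well above the rest. HXT2, a high-affinity transporter repressed by high glucose, stood at 4.16 and 4.35 at day 0 and at 0.09, -1.22, -2.98 and -0.96 at day 1 (-5.52 ± 0.67). HXT5, which is linked to slow growth, fell by 1.63 ± 0.31, and the galactose permease GAL2 by 2.13 ± 0.34. HXT7, whose probe set can also bind a near-identical gene, was not called at -0.15 ± 0.28. The calls of HXT1, HXT3 and HXT4 ended after repeated quantile normalization (adjusted p = 0.118, 0.0554 and 0.156), those of HXT1 and HXT4 also without day 0 replicate 2 (0.107 and 0.266), and that of HXT1 without day 0 replicate 1 (0.0639). Of 14 genes for other sugars, 5 fell and 0 rose, among them GAL7 (-2.39 ± 0.34) and the maltose genes MAL11 and MAL31 (-2.11 ± 0.51 and -1.81 ± 0.42). Fewer fell without day 0 replicate 1 or 2 (list medians of -0.8 and -0.74), and 3 fell without day 1 replicate 3. The calls of MAL11 and MAL31 ended after repeated quantile normalization (limma adjusted p = 0.173 and 0.156) and without day 0 replicate 2 (changes of -1.95 and -1.63).

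Of 28 glycolysis and fermentation genes, 4 rose and 1 fell (17.9% called, beside 20.3% over all genes), with a median of 0.48. The number that rose was 1 without day 0 replicate 2. ENO2 (enolase) rose by 1.80 ± 0.51, PFK27, which makes an activator of glycolysis, by 1.78 ± 0.39, and the activators TYE7 and GCR1 by 1.75 ± 0.43 and 1.04 ± 0.37. PYK2, the pyruvate kinase used when glycolytic flux is low, fell by 1.77 ± 0.32. The abundant enzymes TDH3 (-0.05), ADH1 (0.23), PDC1 (0.76), PGK1 (0.68), ENO1 (0.48) and TDH1 (0.40) were not called, nor were the hexose kinase genes HXK1, HXK2 and GLK1 (0.10, 0.87 and -0.33). Without replicate 4, HXK2 was called (1.21, adjusted p = 0.0238). The calls of ENO2, TYE7 and GCR1 ended after repeated quantile normalization (adjusted p = 0.224, 0.0962 and 0.24) and without day 0 replicate 2 (0.121, 0.0587 and 0.211), and that of GCR1 also without day 0 replicate 1 (0.125), day 1 replicate 3 (0.0947) or day 1 replicate 4 (0.066).

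Cytosolic ribosomal protein genes rose in 105 of 127 cases and fell in 0. Their median change was 1.63, and in 110 the day 1 arrays all lay above both day 0 arrays, beside 20.8% over all genes. Array medians were -1.22 and -1.45 at day 0 and 0.41, 0.39, 0.82 and -0.30 at day 1, lowest on replicate 4. RPS9A had -3.76 and -3.33 at day 0 and -0.25, -0.40, 0.60 and 0.13 at day 1 (3.56 ± 0.32, adjusted p = 7.27e-08). RPS22A, by contrast, had replicate 4 at -1.24 and the other day 1 arrays between 0.84 and 1.72, against -2.20 and -3.10 at day 0 (3.27 ± 0.58), and lost its call after repeated quantile normalization (adjusted p = 0.0833). RPS28B, RPL33B and RPL14A rose by 3.17, 2.98 and 2.96. RPL3 was not called at 0.04 ± 0.39. Many ribosomal proteins are encoded by gene pairs, and the probe sets of such pairs may not separate their transcripts fully. Without replicate 4, 111 rose, without replicate 3, 94, without day 0 replicate 2, 76, and after repeated quantile normalization 51.

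Among other genes of protein synthesis fewer members were called. Ribosome biogenesis genes, which build the ribosome in the nucleolus, rose in 7 of 135 cases and fell in 3, which is 7.41% called beside 20.3% over all genes. Their median was 0.06, with array medians of -0.31 and 0.20 at day 0 and -0.28, -0.19, 0.59 and 0.01 at day 1, so replicate 3 was the highest. Without replicate 3 the balance of calls turned, with 4 higher and 6 lower and a median of -0.10, and with replicates 1 and 2 only it was 5 and 18. Without day 0 replicate 1, 2 rose and 3 fell with a median of -0.23, without day 0 replicate 2, 4 rose and 1 fell with a median of 0.37, and without day 1 replicate 4, 11 rose and 5 fell. UTP22 (1.89 ± 0.19) and NIP7 (1.67 ± 0.37) rose and YTM1 (-1.81 ± 0.40) fell, while NOP1 was not called at 1.27 ± 0.62. Replicate 3 was the highest day 1 array for NIP7 and YTM1, at 1.02 and 1.31, with the others between -0.23 and 0.02, and without day 0 replicate 2 YTM1 lost its call (adjusted p = 0.0651). After repeated quantile normalization NIP7 and YTM1 both did (0.0615 and 0.0903). Subunits of RNA polymerases I and III rose in 2 of 24 cases (8.33%, median 0.66) and mitochondrial ribosomal proteins in 8 of 77 (10.4%, median 0.45). Both shares lay near the 9.97% over all genes. Translation factors and aminoacyl-tRNA synthetases rose in 9 of 55 (16.4%, median 0.57). In each of these lists 0 members were called lower. At an unadjusted p under 0.05 in limma, 4 mitochondrial ribosomal proteins and 1 translation gene were lower. The mitochondrial ribosomal proteins that rose were 13 without replicate 3, 3 without day 1 replicate 2, 5 and 2 without day 0 replicates 1 and 2 in turn, and 0 after repeated quantile normalization, and 2 fell without day 1 replicate 1 or 4. Translation genes that rose were 16 without replicate 4 and 5 without day 0 replicate 1, and polymerase subunits that rose ranged from 1 to 5 as each array was left out. The elongation factor YEF3 and the ribosome recycling factor RLI1 rose by 1.62 ± 0.33 and 1.53 ± 0.27. Genes of purine synthesis and folate-bound carbon units, many of them targets of Bas1, rose in 10 of 37 cases and fell in 0. ADE17, of the last steps of purine synthesis, had -1.97 and -2.10 at day 0 and 1.31, 0.95, 1.25 and -0.97 at day 1, with replicate 4 apart. MTD1 and SHM2, which supply folate-bound carbon units, rose by 2.23 ± 0.31 and 1.91 ± 0.57. After repeated quantile normalization 1 member rose, without replicate 4, 16 did, and without day 0 replicates 1 and 2 in turn, 4 and 3 did. Without replicate 3, 2 members fell. SHM2 lost its call without either day 0 array (adjusted p = 0.0825 and 0.113), and SHM2 and ADE17 lost theirs after repeated quantile normalization (0.465 and 0.139).

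Of 82 genes of G1, START and DNA replication, 5 rose and 1 fell (7.32% called), and of 68 genes of G2, mitosis and cytokinesis, 8 rose and 3 fell (16.2%), beside 20.3% over all genes. The first list had 8 rising and 4 falling members without replicate 4, 8 rising without day 1 replicate 2 and 3 without day 0 replicate 2. In the second, 3 and 4 rose without day 0 replicates 1 and 2 in turn. The cyclins CLN1, CLN2, CLN3 and CLB5 were not called, with changes of 0.69, 0.23, 0.25 and -0.18, and neither was SIC1, which blocks entry into S phase (-0.37 ± 0.28). CLB2, the main mitotic cyclin, had -0.12 and 0.16 at day 0 and 0.94, 1.91, 2.70 and -0.53 at day 1, so that replicate 4 fell below both day 0 arrays and the change of 1.24 ± 0.63 was not called. Without replicate 4 it was called, at 1.83 (adjusted p = 0.0109). FAR1, an inhibitor of G1 cyclins, rose by 2.17 ± 0.57, SCC2, the cohesin loader, by 2.58 ± 0.24, and CDC20, an activator of anaphase, fell by 1.59 ± 0.27. The histone genes HTA2 and HTB2 rose by 2.08 ± 0.48 and 1.41 ± 0.32, and the other 8 histone genes were not called. HUG1, a small protein induced by DNA damage and replication stress, rose from -3.94 and -3.87 to 0.33, 0.23, -0.67 and 0.28 (3.95 ± 0.38), while the damage-induced RNR3 was not called (-0.45 ± 0.64). In the DNA damage list 1 of 24 genes rose and 1 fell. The calls of FAR1, HTA2 and HTB2 ended after repeated quantile normalization (adjusted p = 0.105, 0.23 and 0.103), and those of FAR1 and HTA2 without day 0 replicate 2 (0.0807 and 0.0602).

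Cell wall genes rose in 20 of 60 cases and fell in 2, with a median of 0.67. EXG1, the main exo-glucanase, stood at -4.12 and -3.87 at day 0 and at -0.83, -1.11, 0.11 and 0.13 at day 1 (3.57 ± 0.32). PST1, a wall protein induced by wall damage, had -3.07 and -3.25 at day 0 and -0.26, -0.31, -0.28 and 0.20 at day 1 (3.00 ± 0.19). DSE2, a secreted wall-degrading protein, stood at -2.54 and -3.61 at day 0 and at 0.72, 0.60, 0.53 and -0.78 at day 1 (3.34 ± 0.40), with replicate 4 lowest. SCW11, a glucanase-like wall protein, rose by 2.48 ± 0.37. GAS1, a glucanosyltransferase, rose by 2.61 ± 0.31, and the chitinase CTS1 by 1.42 ± 0.22. The members that fell were CRR1 (-2.59 ± 0.52), a spore wall gene, and CHS1 (-1.37 ± 0.40), a chitin synthase whose replicate 4 value of 0.35 lay between the day 0 values of 0.13 and 0.62. CHS1 lost its call without day 0 replicate 2 (adjusted p = 0.166) and after repeated quantile normalization (0.125), as FLO9 did after the latter (0.0575). Of 15 flocculin and adhesion genes 2 rose and 2 fell. Without day 0 replicate 1, 0 of them fell in limma. FLO9, with a probe set that can bind related flocculins, rose by 1.80 ± 0.39, and FLO11 was not called at -0.62 ± 0.47. Of 51 genes of secretion and the unfolded protein response 8 rose and 0 fell, among them PSA1 (2.61 ± 0.25), which makes GDP-mannose, and SIL1 (1.70 ± 0.28), a nucleotide exchange factor of the endoplasmic reticulum. In that list 5 rose without day 0 replicate 2 or without day 1 replicate 2, and 12 without replicate 4.

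**Figure D4:**
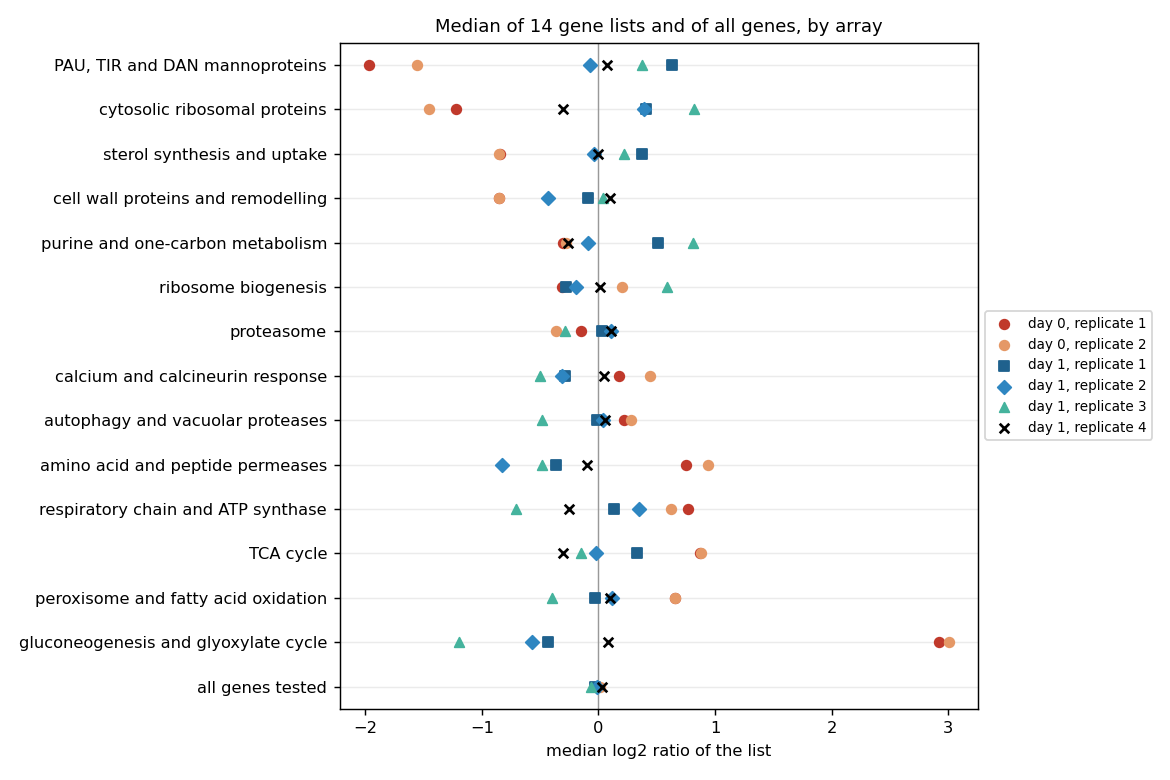
Median log2 ratio (x axis) of 14 gene lists and of all genes tested, with 1 symbol per array. The largest distance between the day 0 and day 1 arrays is in gluconeogenesis and the glyoxylate cycle; replicate 3 lies highest or lowest of the day 1 arrays in several lists, and replicate 4 is the lowest of them in ribosomal proteins.

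Among permeases more members fell than rose. Of 29 amino acid and peptide permease genes, 13 fell and 2 rose, with a median of -0.82. GNP1 had 3.58 and 4.00 at day 0 and -1.30, -1.30, -2.40 and -0.91 at day 1. BAP3, for branched-chain amino acids, and MMP1, for S-methylmethionine, fell, at -4.63 ± 0.61 and -4.61 ± 0.53. MUP1, the high-affinity methionine permease, had 2.83 and 3.07 at day 0 and -2.40, -3.0, -3.29 and 1.43 at day 1, so replicate 4 lay well above the other day 1 arrays (-4.76 ± 1.01). PUT4, for proline, had a similar spread, from -3.78 to -0.15 at day 1 (-4.60 ± 1.00). The members that rose were HIP1, for histidine (1.25 ± 0.20), and OPT2, an oligopeptide transporter (1.45 ± 0.53), whose day 1 value of -1.45 on replicate 4 lay between the day 0 values of -1.31 and -1.61. OPT2 lost its call without any 1 of these arrays except replicate 4 (adjusted p from 0.0792 to 0.234) and after repeated quantile normalization (0.619). The general permease GAP1 and the arginine permease CAN1 were not called, at -0.20 and 0.17. The calls of MUP1 and PUT4 ended after repeated quantile normalization (adjusted p = 0.0926 and 0.0509), in which HIP1 fell short of 2-fold (0.99) and 5 permeases fell.

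Amino acid synthesis genes under Gcn4 rose in 9 of 73 cases and fell in 5. Without replicate 4, 17 rose and 7 fell, beside 640 and 693 of all 5445 genes, and without day 0 replicate 2, 4 rose and 4 fell. Those that fell were 3 without day 0 replicate 1. BAT1, the mitochondrial branched-chain aminotransferase, rose by 2.48 ± 0.46. ARO10 and ARO9, which degrade aromatic amino acids, fell by 4.06 ± 0.79 and 2.79 ± 0.51, and ARO10 stood at 2.12 and 2.15 at day 0 and at -1.74, -2.22, -3.88 and 0.13 at day 1. PUT1, the first enzyme of proline breakdown, fell by 3.77 ± 0.75, again with replicate 4 highest of the day 1 arrays at 0.05. In sulfur metabolism 5 of 37 genes rose and 7 fell, while 4 and 3 fell without day 0 replicates 1 and 2 in turn. SAH1, which recycles S-adenosylhomocysteine, rose from -2.77 and -2.97 to 0.37, -0.01, 0.12 and 0.08 (3.01 ± 0.25), and the sulfate permease SUL2 by 3.00 ± 0.41. JLP1, which releases sulfate from sulfonates, fell by 3.69 ± 0.89, with day 1 values of -2.35, -3.02, -3.45 and 1.26 that overlapped the day 0 values of 1.13 and 2.46, and its call ended without day 0 replicate 2 (adjusted p = 0.089) and after repeated quantile normalization (0.102).

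In the iron uptake list, which also holds genes with other functions, 14 of 40 genes fell and 4 rose. FIT1, a wall protein that binds siderophores, fell by 3.30 ± 0.43, ISU1, a scaffold for iron-sulfur clusters, by 2.63 ± 0.41, HMX1 (heme oxygenase) by 2.42 ± 0.47 and the reductase FRE3 by 2.39 ± 0.40. The members that rose were FET4, ISU2 (1.73 ± 0.33), SMF1 (1.43 ± 0.30) and BIO2 (1.00), the last of which fell short of 2-fold without day 0 replicate 1 or day 1 replicate 1 or 2 (0.81, 0.91 and 0.88) and after repeated quantile normalization (0.99), in which SMF1 also lost its call (adjusted p = 0.0501). In the phosphate list 7 of 29 genes fell and 3 rose, while 2 fell without day 0 replicate 2. PHO89 fell most, followed by PHM7 (-3.13 ± 0.50), SPL2 (-2.75 ± 0.62) and PHO4 (-2.01 ± 0.56), the activator of the pathway. SPL2 and PHO4 lost their calls without day 0 replicate 2 (adjusted p = 0.0819 and 0.107), and PHO4 also after repeated quantile normalization (0.055). PHO84, the high-affinity phosphate transporter, had -0.49 and 1.01 at day 0 and 0.70, -0.54, -2.42 and -1.34 at day 1 and was not called (-1.16 ± 0.91).

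Calcium and calcineurin genes fell in 10 of 32 cases and rose in 2, while 5 fell without day 0 replicate 2. CRZ1, the transcription factor that calcineurin activates, was at 1.06 and 2.22 at day 0 and at -0.40, -0.03, -0.79 and 0.06 at day 1 (-1.93 ± 0.39). PMC1, the vacuolar calcium pump, fell by 1.11 ± 0.36, RCN1, a regulator of calcineurin, by 2.19 ± 0.72 and the sodium pump ENA5 by 2.36 ± 0.29, the last with a probe set that can bind related pump genes. PHO89, also a target of Crz1, was described above. EXG1 and FIG1 (1.71 ± 0.43) were the members that rose. The calls of PMC1 and RCN1 ended after repeated quantile normalization (adjusted p = 0.174 and 0.219) and without day 0 replicate 2 (0.285 and 0.188), and that of CRZ1 without day 0 replicate 2 (0.066). PMC1 also lost its call without replicate 3 (0.0681), RCN1 without day 0 replicate 1 or day 1 replicate 2 (0.0858 and 0.0705), and FIG1 without day 0 replicate 1 (0.0558) and after repeated quantile normalization (0.0557).

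In glycerol and water balance, STL1, a glycerol importer, had 3.48 and 2.66 at day 0 and -0.82, -0.50, -1.14 and -0.23 at day 1 (-3.74 ± 0.41), and the aquaporin AQY1 fell by 3.86 ± 0.64. Both genes of glycerol breakdown fell, GUT1 by 2.02 ± 0.35 and GUT2 by 2.57 ± 0.62, with calls that ended after repeated quantile normalization (adjusted p = 0.0623 and 0.0829). GPP2, which makes glycerol, rose by 1.88 ± 0.42, whereas GPP1 (1.53 ± 0.79) and GPD1 (-0.23 ± 0.41) were not called. Of the 33 genes in the osmotic and glycerol list, 7 fell and 1 rose. In lipid synthesis 8 of 33 genes rose and 2 fell. INO1, the first step of inositol synthesis, rose by 2.19 ± 0.42 and its repressor OPI1 fell by 1.57 ± 0.25, and YSR3, a phosphatase of sphingoid bases, rose by 3.00 ± 0.41.

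Of 43 targets of the stress factors Msn2 and Msn4, 2 rose and 5 fell (16.3% called), and of 39 chaperones 1 rose and 7 fell (20.5%), beside 20.3% over all genes. The falling members were 3 and 0 without day 0 replicate 2, and 3 in each list without day 0 replicate 1. Without replicate 3, 3 of the Msn2 and Msn4 targets fell. HSP12 (-0.26), HSP26 (-0.02), HSP104 (-0.34), SSA4 (0.21), CTT1 (-0.49) and SOD2 (-0.43) were not called, and neither were the trehalose and glycogen genes TPS1 (-0.56), GSY2 (0.38) and GPH1 (0.88). GPH1 was called without replicate 4 (1.04, adjusted p = 0.0115) and without day 0 replicate 1 (1.23, adjusted p = 0.0325). HSP26 lay between -0.03 and 0.07 on all 6 arrays. MSN4 itself rose from -2.49 and -2.27 to -0.35, -0.02, -0.85 and 0.40 (2.17 ± 0.29), and RPI1, a regulator linked to wall genes in stationary phase, from -3.18 and -2.97 to -0.03, -0.19, 0.33 and 0.18 (3.15 ± 0.28). FMP45, a cell cortex protein gene needed for sporulation, fell, at -4.09 ± 0.73, and so did GRE1, a hydrophilin, at -2.93 ± 0.61, though not after repeated quantile normalization (adjusted p = 0.0553). SPG4, a stationary phase gene, had 0.62 and 0.80 at day 0 and -1.10, 0.20, -5.22 and -0.01 at day 1 and was not called, except without replicate 4 (-2.76, adjusted p = 0.047) or replicate 2 (-2.82, adjusted p = 0.0489). In the quiescence list 3 of 32 genes rose and 6 fell, and in autophagy and vacuolar proteolysis 1 of 43 rose and 8 fell (28.1% and 20.9% called). Without day 0 replicate 2 or without day 1 replicate 3, 3 and 4 fell. Of 40 proteasome genes 0 were called in limma (6 were higher and 0 lower at an unadjusted p under 0.05). The largest proteasome change was 0.89 ± 0.35 in PRE9 (adjusted p = 0.0567). PRE9 was called without replicate 3 (1.03, adjusted p = 0.0368) and with replicates 1 and 2 only (1.24, adjusted p = 0.0165), and 1 member was called higher without replicate 2. Of 34 genes of silencing and ageing, 2 rose and 1 fell: TOR1 rose by 1.10 ± 0.24 and BCY1, the regulatory subunit of protein kinase A, fell by 1.10 ± 0.25. Both changes came under 2-fold in alternatives, at 0.97 for TOR1 without day 0 replicate 2 and at -0.95 for BCY1 without replicate 3. After repeated quantile normalization both were also short of 2-fold, TOR1 at 0.85 (limma adjusted p = 0.0909) and BCY1 at -0.92. Without replicate 4, 4 members of the list fell. SIR2 was not called (-0.48 ± 0.31, limma adjusted p = 0.261). RIM15 was not called because its rise fell short of 2-fold (0.88 ± 0.20, limma adjusted p = 0.00269). All 4 day 1 arrays lay above both day 0 arrays for RIM15. ACT1, a common reference gene, changed by 0.04 ± 0.16.

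Mating genes were read as a check of the Mat-alpha label. MF(ALPHA)1, the main pheromone gene of alpha cells, stood at -1.51 and -1.99 at day 0 and at 3.39, 3.10, 3.10 and -0.72 at day 1 (3.97 ± 0.79), with replicate 4 nearest to day 0. Without replicate 4 its rise was 4.95. MF(ALPHA)2 and SAG1, further alpha-specific genes, rose by 1.27 ± 0.39 and 1.03 ± 0.35, and STE3, the receptor of alpha cells, was not called at 1.06 ± 0.46. STE3 was called without replicate 4 (1.58, adjusted p = 0.00109). Of the a-specific genes, MFA2 (-2.88 ± 0.40), STE6 (-2.38 ± 0.36), ASG7 (-3.10 ± 0.29) and STE2 (-1.47 ± 0.32) fell, while MFA1 (-0.91), BAR1 (-0.78) and AGA2 (-0.43) were not called. MFA1 was called without replicate 4 (-1.16, adjusted p = 0.032) or replicate 2 (-1.16, adjusted p = 0.0418). MFA2 had 2.00 and 3.92 at day 0 and between -0.31 and 0.42 at day 1. A ratio to the gene's own median gives no absolute level, so the mating type cannot be read from these values. MF(ALPHA)2 and SAG1 lost their calls without day 0 replicate 2 (1.05 and 0.96). Both also did after repeated quantile normalization (limma adjusted p = 0.111 and 0.232). SAG1 was also not called without day 0 replicate 1 (1.11) or without day 1 replicate 1, 2 or 3 (adjusted p from 0.0583 to 0.07). In the fit of the 6 arrays alone, the calls of MF(ALPHA)1, MF(ALPHA)2, SAG1 and STE2 ended (adjusted p = 0.0638, 0.0845, 0.126 and 0.0658). STE4, the beta subunit of the pheromone G protein, rose by 1.68 ± 0.17. In meiosis and sporulation 14 of 49 genes fell and 2 rose, while 6 fell without day 0 replicate 2, 4 after repeated quantile normalization and 1 in the fit of the 6 arrays alone. IME1, the inducer of meiosis, had 2.49 and 2.54 at day 0 and -0.16, -0.51, -0.31 and -0.08 at day 1 (-2.78 ± 0.29).

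The groups outside this comparison show where both days lay in the series. These are group medians of the same lists, with no comparison drawn, since they share the median that all ratios refer to. Gluconeogenesis and glyoxylate genes had a median log2 ratio of 2.98 at day 0 and -0.54 at day 1, beside -1.38 in log phase cells, 1.69 in stationary phase and -0.20 in the chemostat. Its group medians at days 3 to 17 lay between -0.10 and 0.29. Ribosomal protein genes were at -1.33 at day 0 and 0.30 at day 1, beside -0.24 in stationary phase, 1.10 in log phase, 1.03 in the chemostat and -0.96 at day 10. The PAU, TIR and DAN mannoproteins were at -1.69 at day 0 and 0.21 at day 1, beside -2.03, -3.20 and -2.37 in log phase, stationary phase and chemostat. FLO1 was at -4.53 at day 0 and 0.20 at day 1, beside -4.81 in log phase, -4.43 in stationary phase and -4.62 in the chemostat. ADH2 was at 6.31 at day 0 and at 1.09 in stationary phase, CHA1 at 5.14 and -0.76, and ADY2 at 6.47 and 6.24. INA1 was at -5.69 at day 0 and -2.41 in stationary phase, with -0.04 in log phase, -0.08 in the chemostat and -0.39 at day 1.

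**Figure D5:**
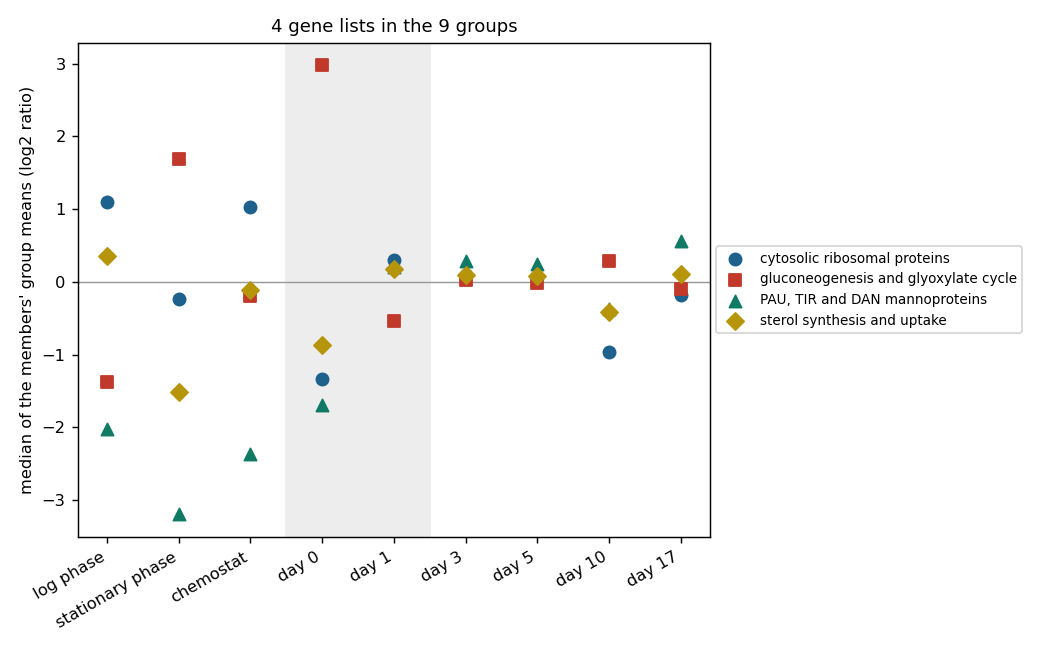
Median over the members of 4 gene lists of the mean log2 ratio in each of the 9 groups (x axis), with day 0 and day 1 shaded. Gluconeogenesis and glyoxylate genes are highest at day 0 (2.98), ribosomal protein genes lowest at day 0 (-1.33), and the PAU, TIR and DAN mannoproteins lie at -1.69 or below in the free-cell groups and at day 0.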

How the data were processed

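Transcript levels were measured on Affymetrix yeast arrays, 26 in 9 groups. Per the submitters' processing notes, RMA summarised the probes; its version is not given. The deposited values are linear ratios of each probe set's signal to its own median over the 26 arrays, as the values show: probe set medians lie between 0.9905 and 1.047. Only these ratios were used, so array signal and background were not examined.

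Log2 of the ratios was taken. Of 10928 probe sets, 5498 had exactly 1 gene of Saccharomyces cerevisiae in the platform annotation; 47 genes had several, of which the probe set of highest mean ratio was kept. In 102 tested probe sets the identifier marks possible binding to several transcripts. Probe sets without annotation (3683), 166 of them Affymetrix controls, were not tested. limma 3.58.1 in R 4.3.3 was fitted to 9 group means (lmFit, eBayes; 21.02 residual and prior degrees of freedom), with the contrast of day 1 minus day 0. The fit was tested in 10 simulations of the arrays, each with 200 of 5445 genes changed. Noise was independent, with 1 spread per gene for all groups. The larger spread at day 1 and the correlations between arrays were not simulated, so rates in the data can differ. In these simulations the fit recovered 27.4% of genes with a log2 change of 1, 70.8% at 1.5, 87% at 2 and 97.8% at 3. It called 5.8 unchanged genes on average. A gene that was not called is therefore not shown to be unchanged. The small number of arrays limits the precision.

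The genes named are, among called genes without overlap between arrays, the 12 highest and the 12 lowest, the 5 largest changes of each list, up to 3 called members of the opposite direction, and fixed genes, 69 of them tested, of which 16 rose, 12 fell and 41 were not called. Partner genes of these (HYP2, PET9, AAC1, AUS1, PDR11, MGA2, the UPC2, ECM22, HMG1 and HMG2 group, the SIP4, CAT8, ADR1, ACS1 and JEN1 group, the mating genes, CTS1, DAN4, PAU4, FET4 and other members used as examples) were chosen after their values were seen. Members and lists were chosen with earlier results of these data known. Of the lists drawn up, 1 is not reported here. Promoter sequences were not analysed here, and no coordinates are printed, since the build is unstated. Plots used Python 3.11.15 with matplotlib 3.10.9.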

Additional observations from a re-analysis of the deposited data

Results flagged for a closer look

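Among the 4 day 1 arrays, a single array stood far from the other 3 in 23 of the 213 named genes and in 4 of 46 list medians, by Dixon's test at its 95% critical value. Chance flags about 1 in 20 groups. Replicate 4 was the distant array in 9 of the genes, replicate 3 in 8, replicate 2 in 5 and replicate 1 in 1.

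Replicate 4 was far below the other day 1 arrays in MF(ALPHA)1 (-0.72, the others from 3.10 to 3.39), STE3 (-0.47), SAG1 (-0.04), ADE17 (-0.97), DSE2 (-0.78) and TOR1 (-0.32). It was above them in HXT5 (0.01), PST1 (0.20) and UPC2 (0.74), and in the median of the chaperone list (0.10, the others from -0.28 to -0.25) and of the silencing and ageing list (0.09).

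Replicate 3 was far below the others in POT1 (-3.07), INO1 (-1.79), HXT7 (-1.39), HYP2 (-0.70) and HUG1 (-0.67), and in the median of the autophagy list (-0.48). It was above them in YTM1 (1.31), NIP7 (1.02) and ENO2 (0.62). This is the array with the highest 3' over 5' signal of control genes (0.487); the part of that in these values was not tested.

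Replicate 2 was far below the others in TIR3 (-1.80), GPD1 (-0.78), ERG3 (-0.50) and HMG2 (-0.30), and in the flocculin list median (-0.42), and above them in SCC2 (0.39). Replicate 1 was above the others in PET9 (0.35). For MF(ALPHA)1 the day 0 values of -1.51 and -1.99 lay below all 4 arrays.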

How the results depend on the processing

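No call of the 159 named and called genes changed direction, and 94 kept their call under every alternative. The fit as reported gave 1106 calls, 543 higher and 563 lower. Repeated quantile normalization gave 429 (242 higher, 187 lower), and the higher calls then made up 56.4% of all calls instead of 49.1%. A fit of the 6 arrays alone gave 454 (254 and 200), with fewer degrees of freedom (7.84 instead of 21.02). Without the 2-fold minimum, 1625 genes passed, 832 of them higher. Leaving out each array in turn gave 667 to 1333 calls, with 376 to 640 higher and 291 to 693 lower. The lowest counts came without day 0 replicate 2 and the highest without day 1 replicate 4. Without either day 0 array, the lone day 0 array that is left takes its spread from the other groups. The counts with day 1 replicates 1 and 2 only were 1429 (680 and 749), and with replicates 3 and 4 only 1054. Averaged probe sets (1107), arrays shifted to a common median (1098), a trended and robust prior (1098), array weights (1324, from an estimate of the weights that stopped before it converged) and a filter on genes that vary little (931) stayed within 1.5 times the main count. The replicate number as a block gave 1260 calls; PRE9 and STE3 were then called (adjusted p = 0.00729 and 0.0365), and NDE1, GCR1, RGI2 and SAG1 were not (0.0759, 0.0762, 0.0779, and 0.0467 with a change under 2-fold). The labels do not say that equal numbers pair arrays, and deviations of same-numbered arrays correlated at 0.173 and -0.172, so no pairing was used. In the named genes, 54 calls ended after repeated quantile normalization (adjusted p up to 0.619), 44 in the fit of the 6 arrays alone (up to 0.192), 38 without day 0 replicate 2 (up to 0.285) and 17 without day 0 replicate 1 (up to 0.158). Calls that ended in the fit of the 6 arrays alone included those of HXT5, MDH2, HMX1 and CRR1 (limma adjusted p = 0.0553, 0.0691, 0.0571 and 0.0609). Leaving out day 1 replicates 1, 2, 3 and 4 ended 3, 5, 7 and 2 calls. The cause of these losses was not tested. The promoter motif counts planned were not run.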

Other observations

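Further gene lists of the 45, not described above, held these numbers of called genes, beside 9.97% higher and 10.3% lower over all genes. Of 29 genes of hexose transport and glucose signalling 4 rose and 5 fell, and of 22 trehalose and glycogen genes 0 rose and 3 fell in limma (1 was higher and 5 lower at an unadjusted p under 0.05). Nitrogen catabolite repressed genes rose in 3 of 31 cases and fell in 6, zinc and copper genes in 2 and 4 of 21, oxidative stress genes in 2 and 6 of 41, and sphingolipid and multidrug resistance genes in 5 and 6 of 40. Thiamine, biotin and pyridoxine genes rose in 4 of 28 cases and fell in 2, and mating genes in 6 and 5 of 30. In the fit without day 0 replicate 2, 2 hexose transport, 0 nitrogen, 0 oxidative stress and 3 mating genes rose, and 3 nitrogen, 2 oxidative stress, 1 sphingolipid and 1 trehalose and glycogen genes fell. The 2 zinc genes that rose were IZH2 and IZH4, already among the 12 highest.

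On the first principal component of the 26 arrays (37.1% of the variance), the day 1 arrays lay at -22.56, -23.27, -44.72 and 21.00, the day 0 arrays at 10.05 and 17.16 and the log phase arrays at -69.02 and -65.64. On the second (21.5%), day 0 lay at 46.97 and 44.40, stationary phase at 60.41 and 57.00, and day 1 between -17.87 and -4.90.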
